A study of Mus musculus with 20 samples.

Results

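Transcripts of 8 amino acid transporters were followed across 1367 single B lineage cells of mouse lymph node. The 8 genes were taken from a list and not ranked by their values, though earlier results of these data were known: Slc3a2, Slc7a5, Slc7a1, Slc7a6, Slc1a5, Slc1a4, Slc38a1 and Slc38a2. All 8 were among the 16047 genes of the count matrix. The cells were eYFP-positive B cells and plasma cells of C57BL/6 mice immunised with NP-KLH, a hapten on a carrier protein, in Sigma Adjuvant System. They were collected at day 15 of the primary response, 4 days after tamoxifen gavage, and every group shares these treatments. The allele that makes cells eYFP-positive, the age of the mice and their number are not given in the sources used here. Cells were index-sorted into plates and read from the 5' end of transcripts by FB5P-seq. The 20 plates carry 2 sampleIDs, C57BL/6F on 10 plates and C57BL/6M on 10 plates. Sex, animal and handling cannot be told apart between them. The p-values measure only the spread between plates, or for the rarer states that between pools of a state and sampleID.

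Cells are described by 4 sort gates (325 dark zone, 367 light zone, 282 pre-plasma and 393 plasma cells) and by the 7 states of the authors' annotation. The states held 480 plasma, 63 memory-like and 29 activated pre-plasma cells, 452 dark zone and 278 light zone cells, 17 of a pre-memory state and 48 returning from light to dark zone (light-to-dark zone). The gates come from antibody fluorescence. The annotation may rest on the same transcripts, so tests between its states are not independent of it. Plate 6 of C57BL/6F held 10 shallow cells and entered none of the comparisons made within plates. Median depth was 60536 counts per cell, with 16638 in memory-like and 229914 in activated pre-plasma cells. The summed plasma cell markers stood at 24687 CPM, counts scaled to library size, in the plasma gate, 9411 in the pre-plasma gate, 5101 for the dark zone and 3573 for the light zone gate. The 8 T cell markers summed to 440.2 CPM in the light zone gate, where Trac and Lck alone had counts and Cd3d, Cd3g, Cd4, Cd8a, Thy1 and Il7r were at 0. They summed to 22.2 CPM in the plasma, 81.0 in the pre-plasma and 278 in the dark zone gate, and their part in the differences below was not tested. Myeloid markers summed to between 0.282 and 20.6 CPM per gate.

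Amino acid transporters carry amino acids, the building blocks of protein, across membranes. Slc3a2 encodes the heavy chain of CD98, a single-pass glycoprotein that carries a light chain to the cell surface. The light chain does the transport: Slc7a5 encodes LAT1, an exchanger of large neutral amino acids such as leucine, and Slc7a6 encodes y+LAT2, which exchanges cationic for neutral amino acids. Slc7a1 encodes CAT-1, a carrier of arginine and lysine that needs no heavy chain. Slc1a5 (ASCT2, best known for glutamine) and Slc1a4 (ASCT1) encode sodium-dependent exchangers of small neutral amino acids. Slc38a1 (SNAT1) and Slc38a2 (SNAT2) encode sodium-coupled importers of glutamine, alanine and other neutral amino acids. Several of these genes are known targets of Atf4, the transcription factor of the amino acid and unfolded protein responses, and of Myc. Germinal centre B cells divide fast, whereas plasma cells secrete antibody in bulk under control of Xbp1, so both have high but different demands for amino acids.

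The genes lie on 6 chromosomes of GRCm38. Slc3a2 is at chr19:8706882-8723369, Slc7a5 at chr8:121881150-121907694, Slc7a1 at chr5:148327410-148399904 and Slc7a6 at chr8:106168857-106198706. Slc1a5 is at chr7:16781340-16798274 and Slc1a4 at chr11:20302180-20332713. Slc38a1 (chr15:96571418-96642913) and Slc38a2 (chr15:96687392-96699730) are neighbours on chromosome 15. RefSeq promoter windows of GRCm38.p6 were matched for 5 members (7 windows of 300 bases). Slc3a2 and Slc38a2 are shown because both rose in plasma cells, and Slc1a4 because its window alone held an amino acid response element core. Capitals mark a GC box (GGGCGG or its reverse strand CCGCCC) in the first and second sequences, and the response element core (TTNCATCA) in the last. All are written 5' to 3' on the gene's strand, which is minus.
Slc3a2, chr19:8713898-8714017: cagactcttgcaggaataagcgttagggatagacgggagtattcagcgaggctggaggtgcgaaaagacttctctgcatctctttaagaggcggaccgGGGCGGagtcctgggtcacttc
Slc38a2, chr15:96699729-96699848: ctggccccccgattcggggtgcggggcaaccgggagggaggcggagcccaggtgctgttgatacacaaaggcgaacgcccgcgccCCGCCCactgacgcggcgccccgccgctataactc
Slc1a4, chr11:20332710-20332735: tccagcgtgcctcctgcgTTGCATCA

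The marked GC box begins 22 bases before the RefSeq transcription start used for Slc3a2 and 35 bases before that of Slc38a2. The Slc3a2 start lies inside the gene span given above and not at its 5' end. In the 120 bases before the start, a GC box stood in 5 of 7 member windows and in 26.5% of 32851 promoters. The core TTNCATCA, searched on both strands over 300 bases, was in 1 of 7 member windows and in 3.97% of promoters. An E-box (CACGTG) was in 0 of 7 and in 7.15% of promoters, and CCAAT was in 2 of 7 and in 37.4%. These matches describe letters only. No factor binding was measured.

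Detection differed widely among the members. Slc1a5 had counts in 726 cells (53.1%, exact 95% interval 50.4 to 55.8) and Slc3a2 in 645 cells (47.2%, 44.5 to 49.9). Slc38a1 was found in 348 cells (25.5%) and Slc38a2 in 292 cells (21.4%). Slc7a6 had counts in 178 cells and Slc7a1 in 160 cells (11.7%), and the median positive cell held 1 count of Slc7a1. The rarest were Slc7a5 in 67 cells (4.90%) and Slc1a4 in 17 cells (1.24%). No member came near the ceiling of 1024 counts per gene and cell. Intervals cover counting error only. In summed cells, fewer cells of a kind and less RNA per cell cannot be told apart.

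The CD98 heavy chain, Slc3a2, separated the gates most clearly. On the scale of CPM scaled by TMM over plates, its level ran from 56.0 to 325 in the dark zone gate (median 116) and from 1.09 to 565 in the light zone gate (median 211). The pre-plasma gate ran from 251 to 1059 (median 403) and the plasma gate from 469.5 to 1627 (median 1135). The dark zone range lay inside the light zone range. The plasma gate did not overlap the dark zone gate and overlapped the light zone gate at its upper end. It overlapped most of the pre-plasma range, although the pre-plasma median lay below the lowest plasma gate plate. In the plot of levels by gate Slc3a2 climbs from left to right, Slc1a5 has means from 304 to 390.2, Slc38a1 is lowest in the plasma gate and Slc38a2 is highest there.

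**Figure D1:**
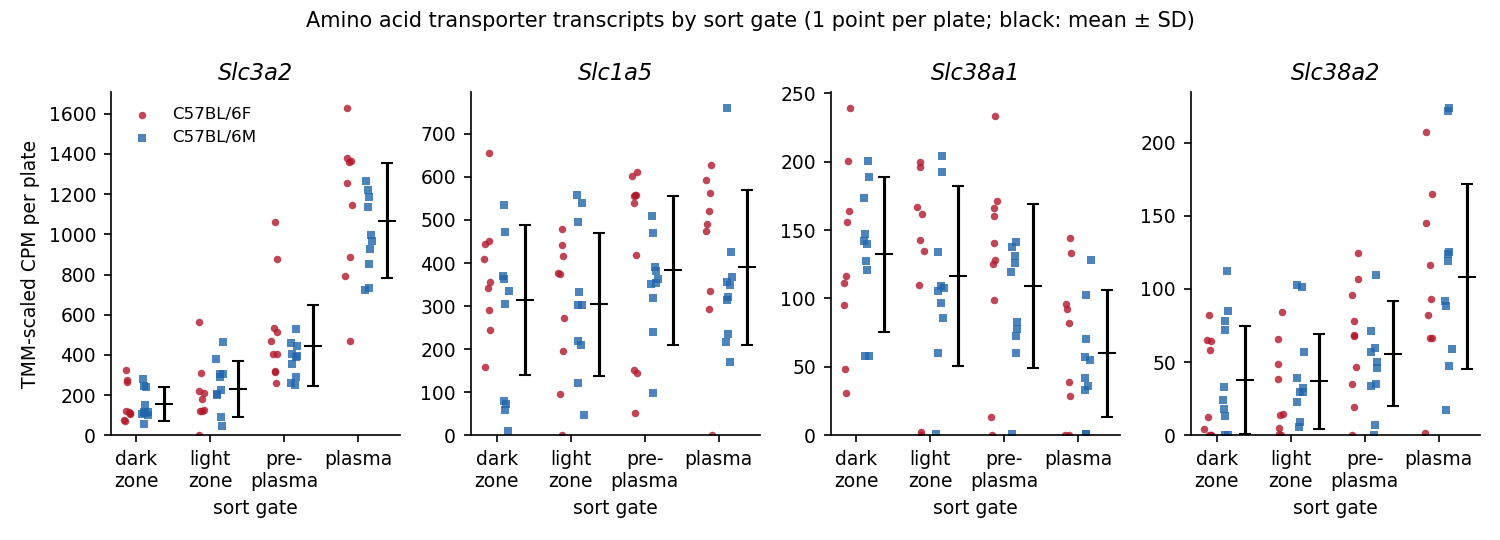
Level of 4 transporters (TMM-scaled CPM, linear axes from 0) in each plate and sort gate, 1 point per plate, red circles for C57BL/6F and blue squares for C57BL/6M, with black bars for the mean ± SD. The plasma gate holds the highest Slc3a2 plates, with a median of 1135, and the lowest median of Slc38a1, 55.1.

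The plasma gate was set against the germinal centre gates (dark and light zone gates summed) within 19 plates. Of 6865 genes tested, edgeR's quasi-likelihood test called 34.9% at an adjusted p under 0.05, 13.6% higher and 21.3% lower, and 3 of the 5 members tested were called. Slc3a2 stood between 417 and 1363 CPM in the plasma gate (median 1043) and between 48.3 and 377 in the germinal centre gates (median 168). The groups did not overlap, and the plasma gate was higher in 19 of 19 plates. The difference was 2.46 ± 0.22 log2 (SE, adjusted p = 9.46e-10).

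The pair of sodium-coupled importers went opposite ways in the same comparison. Slc38a2 rose in the plasma gate, from 36.2 ± 25.1 CPM (SD, n = 19; 0 to 86.3, median 43.2) to 101.4 ± 59.4 (1.28 to 206, median 89.5). It was higher in 17 of 19 plates although the ranges overlapped (log2 difference 1.73 ± 0.46, adjusted p = 0.00445). Slc38a1 fell, from 122 ± 40.8 CPM (32.3 to 183, median 122) to 56.2 ± 43.8 (0 to 132, median 51.4). It was lower in 17 of 19 plates, again with overlapping ranges (-1.78 ± 0.55, adjusted p = 0.0137). The call of Slc38a1 was lost without the plate as a block (-1.13 ± 0.46, adjusted p = 0.0591). Both calls were lost in the plates of C57BL/6M alone, where Slc38a1 was at -1.83 ± 0.71 (adjusted p = 0.0815) and Slc38a2 at 1.21 ± 0.53 (adjusted p = 0.123). In the plates of C57BL/6F alone Slc38a1 was at -1.70 ± 0.83 (adjusted p = 0.211).

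The other members did not pass the test between these gates. Slc1a5 averaged 366 ± 170 CPM in the plasma gate, where plate 2 of C57BL/6F had 0, and 303 ± 133 in the germinal centre gates (0.24 ± 0.32, adjusted p = 0.588). Slc7a6 averaged 53.3 ± 45.5 and 46.9 ± 31.7 CPM (-0.02 ± 0.71, adjusted p = 0.983). Slc7a5, Slc7a1 and Slc1a4 fell under the filter on low counts and were not tested. Their medians over plates in the plasma and germinal centre gates were 5.73 and 0.324 CPM for Slc7a5, 2.75 and 6.22 for Slc7a1, and 0 in both for Slc1a4. Xbp1, the driver of the secretory programme, was at 4361 ± 1076 and 218 ± 64.1 CPM (4.35 ± 0.14, adjusted p = 3.06e-18). Atf4 was at 105 ± 57.7 and 68.2 ± 29.7 (0.52 ± 0.41, adjusted p = 0.351), and Myc fell from 65.6 ± 51.1 to 24.8 ± 27.0 (-2.26 ± 0.86, adjusted p = 0.0419).

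By the authors' annotation, plasma cells were set against germinal centre B cells (both zones and the cells between them) on 19 plates. Here 30.9% of 7649 genes were called, 15.1% as higher and 15.8% as lower in plasma cells, and 3 of 7 members tested rose. With spike-in scaling, described below, 1275 genes were higher and 873 lower, against 1156 and 1211. Slc3a2 averaged 883 ± 294 CPM (283 to 1477, median 857) in plasma cells and 182 ± 73.1 (62.7 to 310, median 146) in germinal centre B cells. Every plate had more in plasma cells, and the ranges overlapped slightly (2.30 ± 0.20, adjusted p = 1.27e-09).

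Slc1a5 averaged 403 ± 157 CPM (95.8 to 619, median 412) in plasma cells and 305 ± 124 (85.0 to 541, median 318) in germinal centre B cells. The ranges overlapped almost fully, with 13 of 19 plates higher in plasma cells (0.41 ± 0.14, adjusted p = 0.0319). Slc38a2 averaged 85.3 ± 43.9 CPM (1.10 to 164, median 78.7) and 40.4 ± 21.4 (4.25 to 83.3, median 46.3). It was higher in 16 of 19 plates (1.16 ± 0.42, adjusted p = 0.0367). Neither call was kept with the size factors of DESeq2 in place of TMM (adjusted p = 0.0882 for Slc1a5 and 0.0536 for Slc38a2), with no filter on low counts (0.106 and 0.0864) or in either sampleID alone, and DESeq2's Wald test did not call Slc1a5. Without the plate as a block, the call of Slc1a5 was lost (adjusted p = 0.177).

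Slc38a1 was at 86.3 ± 52.6 CPM in plasma and 113 ± 40.7 in germinal centre B cells (-0.61 ± 0.40, adjusted p = 0.269). Of the light chains and the cationic carrier, Slc7a6 was at 61.6 ± 54.3 and 42.7 ± 28.3 CPM (0.33 ± 0.61), Slc7a5 at 16.4 ± 23.2 and 8.93 ± 15.2 (1.09 ± 1.26) and Slc7a1 at 11.6 ± 17.7 and 10 ± 10.2 (0.19 ± 0.97). Their adjusted p were 0.734, 0.555 and 0.908. Slc1a4 was not tested, with 145 counts in plasma and 57 in germinal centre B cells. Atf4 rose from 66.0 ± 31.0 to 134 ± 61.2 CPM (0.99 ± 0.25, adjusted p = 0.00348) and Xbp1 from 212 ± 74.1 to 3740 ± 697 (4.21 ± 0.13, adjusted p = 1.29e-18). Myc was at 41.1 ± 31.9 and 73.2 ± 52.4 CPM (-1.16 ± 0.75, adjusted p = 0.266).

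The pre-plasma gate is the sorted population placed between both ends. Against the same germinal centre pools, 15.2% of 7150 genes were called, 7.09% higher and 8.14% lower, and 1 of 6 members tested rose. Slc3a2 averaged 413 ± 171 CPM (251 to 1029, median 390.5) in the pre-plasma gate and 211 ± 101.1 (50.7 to 412, median 179) in the germinal centre gates. It was higher in 16 of 19 plates with overlapping ranges (1.06 ± 0.19, adjusted p = 0.000175). Slc1a5 was at 384 ± 161 and 329.8 ± 148 CPM (0.21 ± 0.14, adjusted p = 0.396), Slc38a1 at 112 ± 54.0 and 133 ± 45.8 (-0.42 ± 0.35, adjusted p = 0.511) and Slc38a2 at 57.4 ± 34.1 and 39.4 ± 27.5 (0.56 ± 0.70, adjusted p = 0.685). Slc7a6 (51.0 ± 36.8 and 50.8 ± 34.2 CPM) and Slc7a1 (11.3 ± 17.2 and 12.6 ± 14.6 CPM) did not pass either, and Slc7a5 and Slc1a4 were not tested. Xbp1 rose by 2.71 ± 0.17 log2 (adjusted p = 2.66e-12). Atf4 (0.61 ± 0.27, adjusted p = 0.146) and Myc (0.21 ± 0.70, adjusted p = 0.896) did not pass.

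Between the plasma and pre-plasma gates, 18.1% of 6564 genes were called, 8.42% higher and 9.69% lower in the plasma gate, and 1 of 6 members tested was among them. Slc3a2 averaged 1004 ± 269.9 CPM (446 to 1539, median 1076) in the plasma gate and 397 ± 168 (235 to 996, median 374) in the pre-plasma gate. All 19 plates were higher in the plasma gate, although the ranges of different plates overlapped (1.37 ± 0.14, adjusted p = 2.26e-08). Slc38a1 was at 56.3 ± 43.7 and 107 ± 51.4 CPM, lower in 17 of 19 plates, and missed the threshold (-1.26 ± 0.51, adjusted p = 0.097). Slc38a2 was at 102 ± 59.7 and 54.9 ± 32.2 (0.93 ± 0.58, adjusted p = 0.313), and Slc1a5 at 366 ± 167 and 369.6 ± 156 (-0.08 ± 0.30, adjusted p = 0.908). Slc7a5 (18.3 ± 32.2 and 15.4 ± 18.7 CPM) and Slc7a6 (53.0 ± 44.6 and 48.9 ± 35.0 CPM) did not pass, and Slc7a1 and Slc1a4 were not tested. Xbp1 was higher by 1.60 ± 0.10 (adjusted p = 2.53e-12), Myc lower (-2.50 ± 0.78, adjusted p = 0.0262), and Atf4 did not pass (-0.24 ± 0.39, adjusted p = 0.752).

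**Figure D2:**
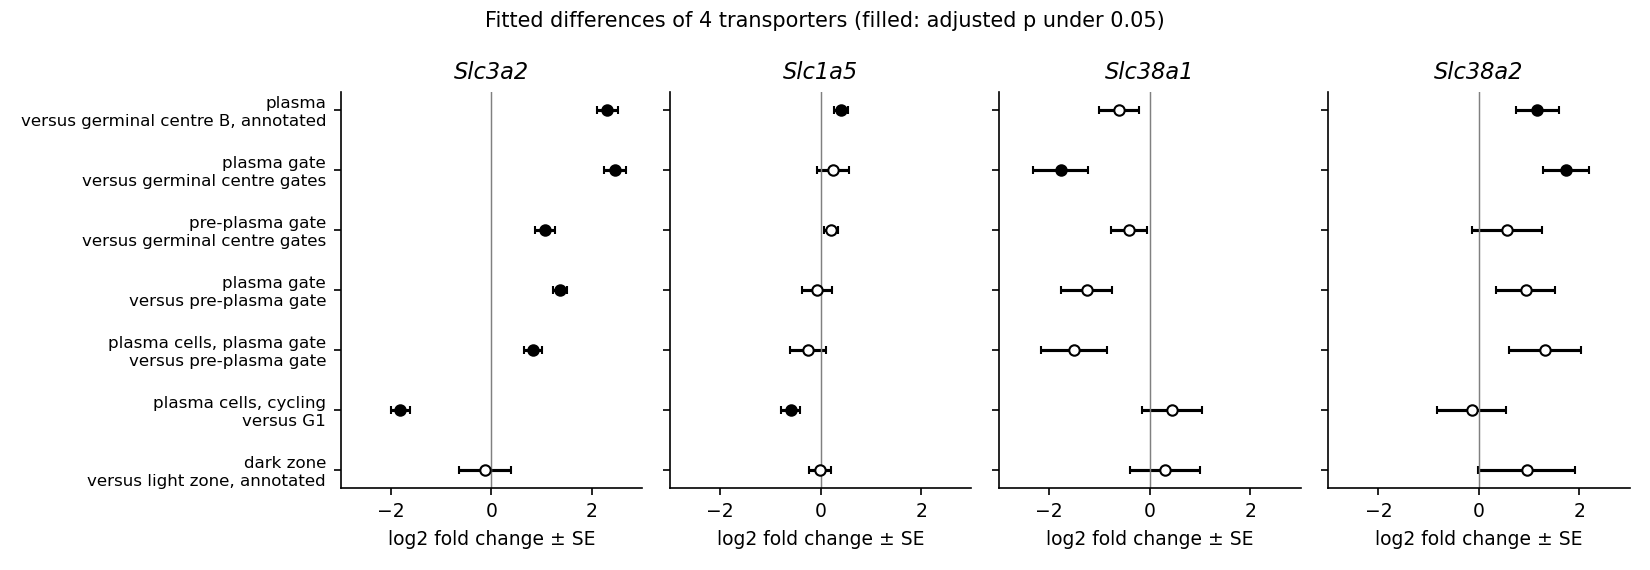
Fitted log2 differences ± SE of 4 transporters in 7 comparisons, with filled points where the adjusted p was under 0.05 and a grey line at 0. Slc3a2 is filled in 6 of 7 comparisons, and its sign is negative in plasma cells in S or G2M against G1 (-1.81).

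The pre-plasma gate is a mixture. It held 128 cells annotated plasma, 29 activated and 27 memory-like pre-plasma, 63 dark zone, 23 light zone, 1 pre-memory and 11 light-to-dark zone cells. Over all cells of each state in this gate, Slc3a2 stood at 572 CPM in annotated plasma cells, 338 in activated, 269 in memory-like, 214 in light-to-dark zone and 96.1 in dark zone cells, with 88.5 for the light zone. The highest and lowest of these states were annotated plasma and light zone cells. Slc38a1 in the same gate ran from 11.4 CPM in light zone to 136 in memory-like cells, and Slc1a5 from 252 in activated to 454 in plasma cells. These levels are sums over cells with no spread between plates.

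To hold the state fixed, annotated plasma cells of both gates were compared on 17 plates. Of 5713 genes 5.95% were called, 4.67% higher and 1.28% lower in the plasma gate, and 1 of 5 members tested was called. With spike-in scaling the split of 267 higher and 73 lower became 90 higher and 599 lower. Slc3a2 averaged 1026 ± 379 CPM (146 to 1817, median 1093) in plasma cells of the plasma gate and 565 ± 219 (315 to 1228, median 479) in those of the pre-plasma gate. The gates overlapped, yet 16 of 17 plates were higher in the plasma gate (0.82 ± 0.18, adjusted p = 0.0046). Leaving out the plates of C57BL/6M (0.80 ± 0.31, adjusted p = 0.440) or requiring 10 cells per pool (0.38 ± 0.31, adjusted p = 1) ended this call. Slc38a1 was at 53.2 ± 41.0 and 122 ± 71.3 CPM (-1.50 ± 0.66, adjusted p = 0.254) and Slc38a2 at 107 ± 65.6 and 54.1 ± 43.2 (1.31 ± 0.72, adjusted p = 0.418). Slc1a5 was at 379.9 ± 173 and 442 ± 187 (-0.25 ± 0.35, adjusted p = 0.830) and Slc7a6 at 52.5 ± 49.1 and 76.9 ± 140 (0.58 ± 1.11, adjusted p = 0.895). The untested members were at 17.9 ± 37.2 and 7.30 ± 13.2 CPM for Slc7a5, 5.85 ± 8.29 and 14.6 ± 30.4 for Slc7a1, and 1.76 ± 5.10 and 2.67 ± 5.52 for Slc1a4. Xbp1 was higher in the plasma gate (0.92 ± 0.09, adjusted p = 1.46e-07), and Atf4 (-0.53 ± 0.43, adjusted p = 0.668) and Myc (-0.70 ± 1.32, adjusted p = 0.894) did not pass.

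Slc3a2 also differed by cell cycle phase, which the authors called from transcripts. Plasma cells in S or G2M were set against those in G1 on 15 plates, where 15.3% of 5760 genes were called, 8.12% higher and 7.19% lower in S or G2M, and 2 of 5 members tested fell. With spike-in scaling the split of 468 higher and 414 lower became 2724 higher and 58 lower. Slc3a2 averaged 396 ± 228 CPM (131 to 1077, median 351) in S or G2M and 1291 ± 377 (433 to 1895, median 1313) in G1. All 15 plates were lower in S or G2M, though ranges overlapped between plates (-1.81 ± 0.18, adjusted p = 2.10e-07). Slc1a5 averaged 339.8 ± 84.7 CPM (150.5 to 452, median 352) and 530.0 ± 195 (163 to 796, median 525). It was lower in 12 of 15 plates (-0.60 ± 0.19, adjusted p = 0.0337). This call was lost with the size factors of DESeq2 (-0.53 ± 0.18, adjusted p = 0.0517), with no filter on low counts (-0.59 ± 0.23, adjusted p = 0.118) and in C57BL/6M alone (-0.30 ± 0.33, adjusted p = 0.775).

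Other members of plasma cells did not pass between phases. Slc38a1 was at 106 ± 61.1 CPM in S or G2M and 81.5 ± 62.6 in G1 (0.44 ± 0.59, adjusted p = 0.714). Slc38a2 was at 68.9 ± 43.9 and 84.4 ± 56.5 (-0.14 ± 0.69, adjusted p = 0.93), and Slc7a6 at 57.9 ± 48.4 and 50.5 ± 41.4 (0.30 ± 1.07, adjusted p = 0.903). The untested Slc7a5 had 492 counts in S or G2M against 120 in G1, and 7 of 15 plates were higher in S or G2M. Slc7a1 (9.45 ± 22.0 and 12.7 ± 16.1 CPM) and Slc1a4 (10.1 ± 23.7 and 2.17 ± 6.44 CPM) were not tested either. Xbp1 fell with Slc3a2, from 5276 ± 1001 to 2130 ± 367 CPM, with no overlap between groups (-1.30 ± 0.08, adjusted p = 6.74e-11). Atf4 was at 143 ± 62.1 and 142 ± 56.8 (-0.10 ± 0.34, adjusted p = 0.897) and Myc at 61.3 ± 55.7 and 22.4 ± 34.9 (2.13 ± 1.54, adjusted p = 0.423).

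These values are shares of a cell's RNA, and plasma cells in S or G2M held more RNA. They had a median of 64.0 (S) and 63.0 (G2M) counts per spike-in count, against 26.3 in G1. Counts per spike-in count follow the RNA captured from a cell, provided that each well received the same amount of spike-in RNA. On this scale Slc3a2 averaged 28.8 ± 13.2 counts per 1000 spike-in counts in S or G2M (9.55 to 59.5, median 29.5) and 33.1 ± 11.8 in G1 (11.9 to 46.5, median 37.4). The fall of Slc3a2 no longer passed (-0.23 ± 0.20, adjusted p = 0.335), while the median of all genes moved from 0.05 to 1.64.

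On the spike-in scale Slc1a5 changed direction. It averaged 26.8 ± 11.1 counts per 1000 spike-in counts in S or G2M (8.71 to 47.0, median 26.3) and 13.9 ± 6.31 in G1 (3.14 to 23.4, median 15.2). That difference was 0.99 ± 0.21 (adjusted p = 0.000433), still under the median of all genes. Slc38a1 averaged 9.06 ± 7.11 and 2.18 ± 1.88 (2.05 ± 0.65, adjusted p = 0.0131). Thus Slc3a2 and Slc1a5 took a smaller share of the RNA of plasma cells in S or G2M, while per unit of spike-in RNA Slc3a2 was not called and Slc1a5 was called higher.

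**Figure D3:**
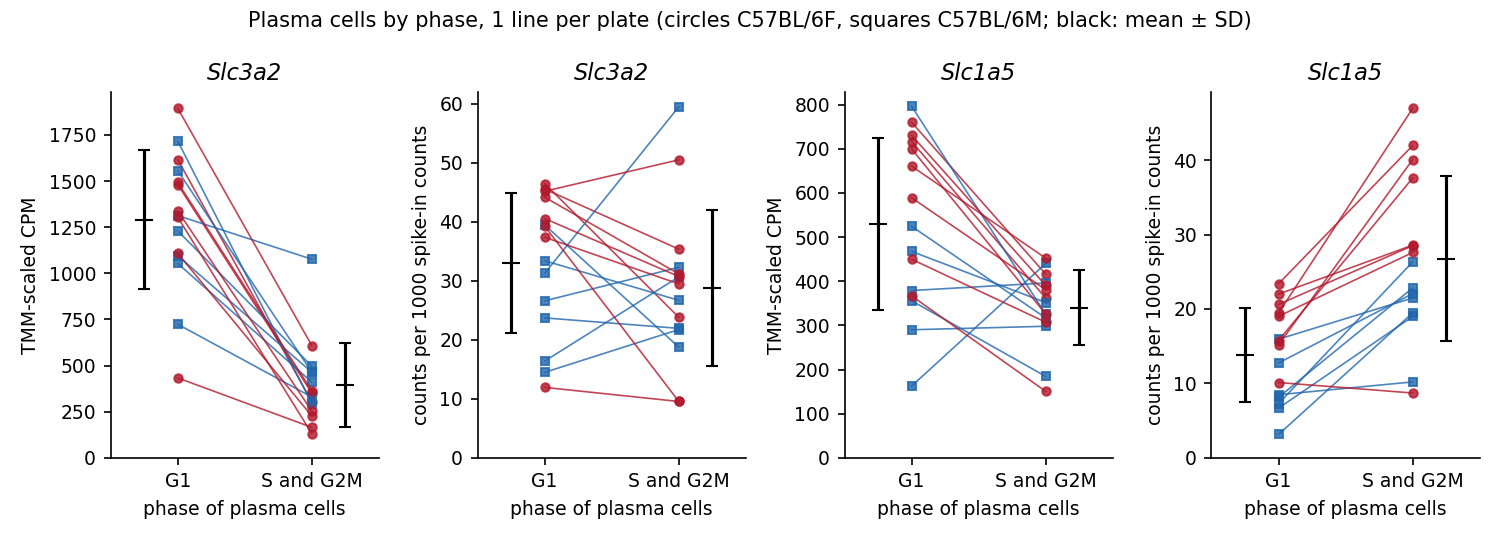
Slc3a2 and Slc1a5 in annotated plasma cells in G1 and in S or G2M, 1 line per plate, red circles for C57BL/6F, blue squares for C57BL/6M and black bars for the mean ± SD, as TMM-scaled CPM and as counts per 1000 spike-in counts. All 15 Slc3a2 lines fall on the CPM axis (mean 1291 to 396), while on the spike-in axis the means are 33.1 and 28.8.

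Gate and phase were crossed in plasma cells, summing all cells of each kind. Slc3a2 stood at 1128 CPM in G1 cells of the plasma gate (295 cells) and 1028 in G1 cells of the pre-plasma gate (67 cells). In S or G2M it stood at 405 CPM in the plasma gate (56 cells) and 358 in the pre-plasma gate (61 cells). Per 1000 spike-in counts these 4 levels were 30.4, 31.9, 24.3 and 27.4. These are sums over cells with no spread, and the part of phase in the gate difference was not tested. Limited to G1 cells, the gate difference of Slc3a2 in annotated plasma cells was 0.51 ± 0.40 on 3 plates (adjusted p = 0.997), and between whole gates 0.70 ± 0.24 on 11 plates (adjusted p = 0.154). Limited to the plasma gate, the phase difference was -2.51 ± 0.30 on 3 plates (adjusted p = 0.00774). These limits were added after the data were seen.

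G1 cells alone still separated plasma from germinal centre cells for Slc3a2. The difference was 3.23 ± 0.57 by annotation (adjusted p = 7.33e-05) and 3.05 ± 0.49 by gate (adjusted p = 1.98e-05), each on 19 plates, and no other member was called in G1 alone. Slc38a2 was then at 1.28 ± 0.70 and 1.51 ± 0.66 (adjusted p = 0.197 and 0.0956), and Slc38a1 in the gates at -1.96 ± 0.87 (adjusted p = 0.102).

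The spike-in scale also changed what separates the gates. Against the germinal centre gates, the pre-plasma gate had Slc3a2 higher by 2.05 ± 0.21 (adjusted p = 8.99e-09) and Slc1a5 by 1.21 ± 0.17 (adjusted p = 2.00e-06), with the median of all genes moving from -0.19 to 0.81 and the split of calls from 507 higher and 582 lower to 2334 and 147. Between plasma and pre-plasma gate, Slc3a2 was at 0.41 ± 0.16 (adjusted p = 0.0436), Slc1a5 at -1.06 ± 0.31 (adjusted p = 0.00831) and Slc38a1 at -2.24 ± 0.50 (adjusted p = 0.000875), with the median of all genes at -1.25 and the split of calls moving from 553 higher and 636 lower to 183 and 2516. Per 1000 spike-in counts, Slc3a2 averaged 28.7 ± 9.30 in the plasma gate, 22.8 ± 11 in the pre-plasma and 5.71 ± 3.21 in the germinal centre gates. For Slc1a5 these means were 10.6 ± 5.39, 22.1 ± 12.1 and 9.03 ± 4.71. Within annotated plasma cells the gate difference of Slc3a2 was -0.0057 ± 0.20 on this scale (adjusted p = 0.992). Plasma against germinal centre gates hardly moved, with Slc3a2 at 2.44 ± 0.23, Slc38a1 at -1.80 ± 0.54 and Slc38a2 at 1.70 ± 0.47, all called.

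No member tested was called between dark and light zone cells. On 19 plates 1.41% of 5447 genes were called (0.845% higher and 0.569% lower) and 0 of 5 members tested. The split of 46 higher and 31 lower became 107 and 13 with spike-in scaling, and 41 and 42 with the size factors of DESeq2. No tested member reached an unadjusted p under 0.05 here, between phases of dark zone cells, between sampleIDs or between the rarer states below, and DESeq2's Wald test called none there. Slc3a2 averaged 168 ± 80.6 CPM (0 to 331, median 161) in annotated dark zone and 215 ± 160 (0 to 623, median 215) in light zone cells (-0.13 ± 0.51, adjusted p = 0.954). Slc1a5 was at 334 ± 161 and 357 ± 192 (-0.02 ± 0.22), Slc38a1 at 129 ± 61.8 and 126 ± 78.2 (0.29 ± 0.70), Slc38a2 at 54.6 ± 40.1 and 42.1 ± 53.2 (0.95 ± 0.96) and Slc7a6 at 47.1 ± 36.4 and 44.2 ± 55.7 (0.91 ± 0.93). Not tested were Slc7a5 (3.42 ± 9.18 and 14.7 ± 52 CPM), Slc7a1 (10.9 ± 20.1 and 12.2 ± 22.8) and Slc1a4 (0.391 ± 1.70 and 0.406 ± 1.77). Myc (0.65 ± 1.33), Atf4 (1.15 ± 0.80) and Xbp1 (0.16 ± 0.37) did not pass. Within the dark zone state, G2M against G1 on 15 plates called 4.18% of 3760 genes (3.43% higher and 0.745% lower) and 0 of 5 members tested. The split of 129 higher and 28 lower was 194 and 0 with spike-in scaling. There Slc3a2 was at 185 ± 107 and 198 ± 183 CPM (0.62 ± 0.94, adjusted p = 0.951) and Slc1a5 at 340.2 ± 194 and 481 ± 288 (-0.61 ± 0.44, adjusted p = 0.765). Slc7a6 (-1.42 ± 1.31) and Slc38a2 (0.21 ± 1.29) did not pass, and the averages of Slc38a1 were 124 ± 70.1 and 133 ± 96.8 CPM. The untested Slc7a5, Slc7a1 and Slc1a4 had 2, 116 and 0 counts in G2M and 0, 46 and 0 in G1. Xbp1 was at 273 in both, Atf4 did not pass (-1.26 ± 1.22), and Myc was not tested. The difference in phase response of Slc3a2 between plasma and dark zone cells was not tested.

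The rarer states were compared on 1 pool per sampleID in 1 fit over 7 states. Light-to-dark zone cells are germinal centre B cells on their way back to division, and Myc marks their selection by T cell help. Against light zone cells, 0.173% of 10995 genes and 0 of 8 members were called, and all called genes were lower. Their split of 0 higher and 19 lower became 506 and 5 with spike-in scaling. Slc3a2 was 186 and 208 CPM in the light-to-dark zone pools and 192 and 220 (219.8) in the light zone pools (-0.06 ± 0.89). Slc7a5 was 10.9 and 14.8 CPM against 0 and 12.6 (1.45 ± 2.08), and Slc1a5 271 and 289.8 against 357 and 369.3 (-0.37 ± 0.55). Slc7a1, Slc7a6, Slc1a4, Slc38a1 and Slc38a2 were at -0.27 ± 1.75, 0.55 ± 1.40, 3.45 ± 3.43, -0.44 ± 0.73 and -0.68 ± 1.42. Adjusted p was 1 for each. Myc (150 ± 42.8 and 61.4 ± 28.0 CPM), Atf4 (71.0 ± 2.45 and 51.7 ± 3.17) and Xbp1 (213 ± 61.0 and 236 ± 10.6) did not pass either. With 1 pool per sampleID, a missed threshold shows little here.

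Activated pre-plasma cells, all 29 of them from the pre-plasma gate, had the highest share of cells with the LAT1 light chain. Slc7a5 had counts in 10 of 29 activated cells (34.5%, exact 95% interval 17.9 to 54.3) and in 10 of 48 light-to-dark zone cells (20.8%, 10.5 to 35.0). It had counts in 34 of 480 plasma cells (7.08%, 4.95 to 9.76) and in 7 of 452 dark zone cells (1.55%, 0.625 to 3.16). Activated cells were the deepest, so each cell was also thinned to 10000 counts, which left out 96 shallower cells. The shares were then 17.2% (5.85 to 35.8) in activated, 12.5% (4.73 to 25.2) in light-to-dark zone, 3.14% (1.77 to 5.13) in plasma and 0.964% (0.263 to 2.45) in dark zone cells. The intervals cover counting error within cells only, and the order of these shares was not tested over samples.

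In all 10 positive activated cells and all 10 positive light-to-dark zone cells, Slc7a5 was found together with Slc3a2, the chain it needs to reach the surface. Slc3a2 itself was in 26 of 29 and 32 of 48 cells of these states. Among plasma cells, 30 of the 34 with Slc7a5 also had Slc3a2, which 354 of 480 plasma cells had. Of the few cells with Slc7a5 in the dark and light zone states, 2 of 7 and 3 of 5 also had Slc3a2. Slc7a6 and Slc3a2 were together in 12 of the 13 activated and 64 of the 75 plasma cells with Slc7a6. In the dark zone state they were together in 15 of 49, where Slc3a2 was in 135 of 452 cells. Detection of Slc3a2 itself differed between these states, and pairing beyond it was not tested.

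By pools, activated cells had Slc7a5 at 22.7 CPM (C57BL/6M) and 46.3 (C57BL/6F), above both light-to-dark zone pools and both plasma pools (15.9 and 16.6). No member passed the test against light-to-dark zone cells, where 0.255% of 10995 genes were called (0.2% higher and 0.0546% lower), or against plasma cells, where 0.291% were (0.0091% higher and 0.282% lower). With spike-in scaling the splits of 22 higher and 6 lower, and of 1 and 31, became 43 and 4, and 557 and 6. The differences of Slc7a5 were 1.49 ± 1.92 and 1.20 ± 1.91 (adjusted p = 1 for each). Slc3a2 was 309 and 333 CPM in the activated pools, with both light-to-dark zone pools lower and both plasma pools higher (915 and 947). Its differences were 0.70 ± 0.89 from light-to-dark zone cells (adjusted p = 1) and -1.54 ± 0.91 from plasma cells (adjusted p = 0.909).

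Of the remaining members, Slc7a6 was 62.3 and 75.6 CPM in activated pools (0.38 ± 1.38 against light-to-dark zone, -0.03 ± 1.36 against plasma) and Slc1a5 198 and 317 (-0.11 ± 0.55 and -0.82 ± 0.56). Slc38a2 was 26.1 and 59.9 CPM (0.91 ± 1.40 and -1.15 ± 1.41), and Slc38a1 85.3 and 100.8 (0.07 ± 0.73 and 0.04 ± 0.73). Slc7a1 was 0.681 and 20.7 CPM and Slc1a4 0 and 3.40. Xbp1 was the named regulator that passed, at 857 ± 88.6 CPM against 213 ± 61.0 in light-to-dark zone cells (2.01 ± 0.28, adjusted p = 0.0111) and 3983 ± 295 in plasma cells (-2.22 ± 0.28, adjusted p = 0.00294). Myc averaged 185 ± 46.1 CPM in activated, 150 ± 42.8 in light-to-dark zone and 46.7 ± 2.28 in plasma cells, and Atf4 94.1 ± 14.7, 71.0 ± 2.45 and 154 ± 39.5, with no call.

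**Figure D4:**
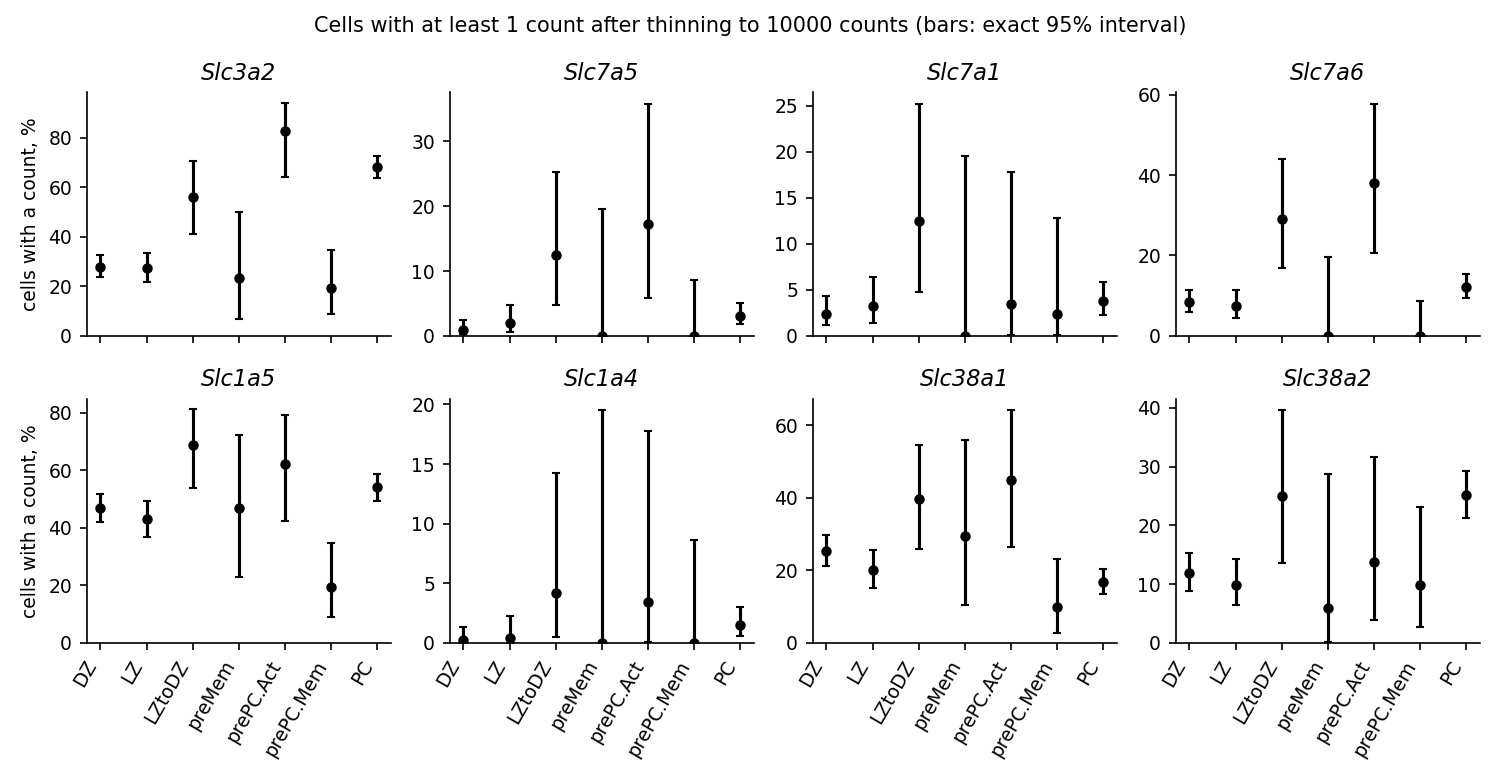
Share of cells with at least 1 count of each transporter after thinning to 10000 counts per cell, by annotated state, with exact 95% binomial intervals that cover counting error only. Activated pre-plasma cells (prePC.Act) have the highest share for Slc3a2 and Slc7a5 (82.8% and 17.2%), and memory-like cells (prePC.Mem) are at 0 for Slc7a5, Slc7a6 and Slc1a4.

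Transporters were found together most often in activated and light-to-dark zone cells. After thinning, a cell held on average 2.66 of the 8 members in the activated, 2.48 in the light-to-dark zone and 1.85 in the plasma state. The averages were 0.610 in memory-like, 1.06 in pre-memory, 1.14 in light zone and 1.24 in dark zone cells. Without thinning, 1 of 29 activated and 2 of 48 light-to-dark zone cells had none of the 8, against 39 of 63 memory-like cells. The thinned share for Slc3a2 was 82.8% (64.2 to 94.2) in activated, 68.3% (64.0 to 72.5) in plasma, 56.3% (41.2 to 70.5) in light-to-dark zone and 28.0% (23.7 to 32.5) in dark zone cells. For Slc38a1 it was 44.8% (26.4 to 64.3) in activated, 39.6% (25.8 to 54.7) in light-to-dark zone, 25.3% (21.2 to 29.8) in dark zone and 16.8% (13.5 to 20.4) in plasma cells. The share with Slc3a2 was higher in plasma than in dark zone cells and that with Slc38a1 lower, which was not tested over plates.

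Memory-like pre-plasma cells were shallow, and 22 of 63 held fewer than 10000 counts. Slc7a5 had 1 count in 63 cells, Slc7a6 had 19 and Slc1a4 was in 0 of 63 cells, which allows a share of cells with a count, not of cells expressing it, of up to 4.76%. Slc3a2 was 103 CPM in the C57BL/6M pool and 1219 in the C57BL/6F pool, so the state has no common level (-0.53 ± 0.92 against plasma, adjusted p = 0.803). It had counts in 12 of 63 cells. The C57BL/6F plates with at least 5 memory-like cells were themselves at 0, 11.6, 1152 (shallow plate 6) and 1528 CPM. The gap between the pools is therefore not shown to be one between sampleIDs. Slc38a1 was 97.5 and 196 CPM (0.63 ± 0.73, adjusted p = 0.694) and Slc38a2 106 and 145 (0.37 ± 1.39, adjusted p = 0.926). Among the 6 plates with at least 5 memory-like cells, each of these genes was at 0 in 5. Their highest plates were at 272 and 296 CPM, so these pools show no stable level. Slc1a5 was 167 and 328 CPM (-0.90 ± 0.56, adjusted p = 0.444) and Slc7a1 5.06 and 12.2 (-0.36 ± 1.81, adjusted p = 0.95). Of 10995 genes 0.0728% were called (0.0455% higher and 0.0273% lower), and 0 of 8 members. With spike-in scaling the split of 5 higher and 3 lower became 2 and 1223. Xbp1 (-0.62 ± 0.27, adjusted p = 0.271), Atf4 (-0.59 ± 1.64) and Myc (0.38 ± 1.51) did not pass. In the 17 pre-memory cells Slc7a5, Slc7a1, Slc7a6 and Slc1a4 had 0 counts, which allows a share of cells with a count of up to 17.6%, and Slc3a2 was in 5 and Slc1a5 in 8 cells.

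Other genes of amino acid supply were read from 4 lists, each beside its tested members, the median of all genes and the shares of all genes called. They were read as shares of RNA on the CPM scale only, and their direction with spike-in scaling is not given. In annotated plasma cells those shares were 15.1% higher and 15.8% lower, between plasma and germinal centre gates 13.6% and 21.3%, and for the pre-plasma gate 7.09% and 8.14%. Plasma cells by annotation had 9 of 23 cytosolic aminoacyl-tRNA synthetases and their scaffold proteins higher and 0 lower (median 0.47, against -0.25 for all genes). These enzymes load amino acids onto tRNA. Nars rose from 200 ± 58.2 to 652 ± 152 CPM (1.73 ± 0.11), Yars from 128 ± 43.6 to 431 ± 71.6 (1.81 ± 0.14), and Wars and Sars by 1.38 ± 0.37 and 1.26 ± 0.36. Between the gates 5 of 23 rose, Tars (0.94 ± 0.23) among them, and 6 of 23 rose in the pre-plasma gate against the germinal centre gates, where Eprs was at 0.96 ± 0.22.

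The list of Atf4 targets and amino acid response genes had 5 higher and 1 lower of 14 tested in annotated plasma cells (median 0.63), where 15.1% of all genes were higher and 15.8% lower. Pycr1, the last enzyme of proline synthesis, was at 215 ± 70.3 CPM in plasma and 2.86 ± 6.68 in germinal centre B cells (8.94 ± 0.84). Aldh18a1, which opens that pathway, was at 88.1 ± 33.4 and 33.1 ± 18.1 (1.54 ± 0.28), and Asns, the asparagine synthetase, at 109 ± 81.9 and 42.4 ± 34.9 (1.81 ± 0.66). Eif2ak4, the kinase that senses uncharged tRNA, was lower, at 4.24 ± 9.28 and 31.1 ± 30.1 CPM (-5.20 ± 1.10). Between the gates the counts were 4 higher and 1 lower of 14, and in the pre-plasma gate 3 higher and 0 lower of 14, with Phgdh of serine synthesis at 451 and 227 CPM (adjusted p = 2.16e-06). In the plasma gate against the pre-plasma gate, Pycr1 was higher (3.39 ± 0.54) and Psat1 lower (-2.02 ± 0.67). Among annotated plasma cells Pycr1 was higher in the plasma gate (2.69 ± 0.60).

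Plasma cells in S or G2M had 4 of 13 response genes higher and 1 lower than those in G1, where 8.12% of all genes were higher and 7.19% lower. These are shares of RNA, and with spike-in scaling the median of all genes moved from 0.05 to 1.64. Psat1, an enzyme of serine synthesis, was at 204 ± 99.5 and 27.2 ± 32.4 CPM (4.11 ± 0.90). Mthfd2 and Shmt2 feed mitochondrial folate metabolism. Mthfd2 was at 122 ± 71.5 and 21.9 ± 29.2 CPM (4.15 ± 1.16), and Shmt2 rose by 1.31 ± 0.42. On the CPM scale Pycr1 fell as Slc3a2 did, from 360.0 ± 90.5 to 88.3 ± 44.0 CPM (-2.23 ± 0.36). Farsb, Aimp2 and Tars were the 3 of 23 tRNA synthetase genes called, all higher (2.71 ± 0.82, 1.20 ± 0.37 and 0.62 ± 0.21), beside the 8.12% of all genes called higher.

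Other amino acid transporters (9 tested of 30 listed) had 1 higher and 3 lower in annotated plasma cells, with the same counts between the gates. Slc38a10, a relative of the sodium-coupled importers, was at 140.3 ± 52.4 and 29.4 ± 19.9 CPM (2.60 ± 0.43). The lysosomal histidine and peptide carriers Slc15a3 (8.92 ± 13.4 and 47.1 ± 19.2 CPM, -4.78 ± 1.11) and Slc15a4 (7.33 ± 8.64 and 31.3 ± 23.0 CPM, -2.87 ± 0.81) were lower. So was the taurine carrier Slc6a6 (-2.14 ± 0.73). The pre-plasma gate had 0 higher and 2 lower of 9 (Slc15a3 and Slc6a6), and the plasma gate had Slc38a10 higher than the pre-plasma gate (1.56 ± 0.40). Slc43a3, listed by its family and not an established amino acid carrier, was higher in plasma cells in S or G2M (2.72 ± 0.80).

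The list of mTORC1, the kinase complex that senses amino acids at the lysosome, had 0 higher and 3 lower of 19 tested in annotated plasma cells (median -0.17), a share near the 15.8% of all genes called lower and so no result about the list. These were Depdc5 (-2.89 ± 0.93), Rraga (-2.19 ± 0.79) and Lamtor1 (-1.11 ± 0.40). Depdc5 is a brake on mTORC1, while Rraga and Lamtor1 recruit it. Between the gates 1 was higher (Lamtor2, 0.37 ± 0.12) and 2 lower of 17. Lamtor2 was also higher in the plasma gate than in the pre-plasma gate, in all cells (0.63 ± 0.14) and in annotated plasma cells (0.82 ± 0.16). There the median of all genes was -1.25 and -0.62 with spike-in scaling, which was not read for Lamtor2. Among annotated plasma cells Sesn1, a leucine-responsive inhibitor, was higher in the plasma gate, at 34.4 ± 28.9 and 9.33 ± 18.6 CPM (4.89 ± 1.35). In S or G2M it was lower than in G1, at 7.33 ± 13.3 and 43.6 ± 37.4 CPM (-4.13 ± 1.29). Sesn1 was scarce, so the size of its log2 values is uncertain. Lamtor2 took a smaller share of RNA in S or G2M (-0.69 ± 0.14). No member of the 4 lists was called between dark and light zone, between phases of dark zone cells, between the rarer states or between sampleIDs.

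The 2 sampleIDs gave no member call. Plasma cells of C57BL/6M (10 plates) and C57BL/6F (9 plates) differed in 0.956% of 7216 genes (0.873% higher and 0.0831% lower) and in 0 of 7 members tested, and germinal centre B cells (10 plates each) in 0.552% of 7423 genes (0.539% higher and 0.0135% lower) and in 0 of 6. Slc3a2 averaged 806 ± 228 CPM in plasma cells of C57BL/6M (491 to 1261) and 847 ± 357 in those of C57BL/6F (279 to 1523), with overlapping ranges (-0.07 ± 0.22). In germinal centre B cells it was at 212 ± 75.2 and 197 ± 89.4 CPM (0.10 ± 0.27). With spike-in scaling the split of all calls in plasma cells moved from 63 higher and 6 lower to 10 and 50. Slc1a5 was at 329 ± 116 and 420.2 ± 156 in plasma cells (-0.35 ± 0.27), Slc38a1 at 62.9 ± 41.1 and 98.4 ± 49.6 (-0.65 ± 0.59) and Slc38a2 at 82.6 ± 38.5 and 74.7 ± 44.0 (0.14 ± 0.48). Slc7a6 averaged 40.0 ± 27.5 and 78.0 ± 71.0 CPM, Slc7a1 14.7 ± 21.4 and 6.18 ± 5.57, and Slc7a5 16.4 ± 22.5 and 14.5 ± 23.4. Slc1a4, at 6.06 ± 15.8 and 2.76 ± 5.72, was not tested. In germinal centre B cells Slc1a5 was at 326 ± 137 and 367 ± 142 CPM, Slc38a1 at 129 ± 28.0 and 152 ± 99.5, Slc38a2 at 46.8 ± 23.8 and 40.0 ± 28.2, Slc7a6 at 56.2 ± 39.1 and 35.5 ± 22.9 and Slc7a1 at 12.9 ± 13.1 and 8.54 ± 9.76. There Slc7a5 (12.8 ± 20.5 and 6.34 ± 12.5) and Slc1a4 (2.02 ± 5.61 and 0.595 ± 1.42) were not tested. Xbp1, Atf4 and Myc did not pass in either class.

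Whether a called contrast of a member differed between sampleIDs was tested on the log2 ratio within each plate (exact permutation, two-sided, 11 tests). None passed. The smallest raw p was for Slc3a2 between phases of plasma cells, -2.15 ± 0.56 in C57BL/6F (8 plates) and -1.35 ± 0.67 in C57BL/6M (7 plates; exact p = 0.0252, adjusted p = 0.277).

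Genes with the pattern most like each member were read over 65 pools of plate and annotated state from 20 plates, as Pearson r of log2(CPM + 10) among 5627 genes. The pools of a plate share its library and depth, so these are descriptions. Slc3a2 was most like Sel1l (r = 0.77), Ubxn4 (0.74) and Mydgf (0.73). Among the genes most like Slc1a5 were Rsrp1 (0.75) and Copz1 (0.75), and Slc38a1 was most like Atad1 (0.74), Adipor1 (0.73) and Ythdf2 (0.68). Slc38a2 was most like Tox4 (0.65), Rab18 (0.65) and Tmed4 (0.61), and Slc7a6 most like Clp1 (0.67), Sec23ip (0.62) and Tfpt (0.61).

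The scarce members had weaker matches. Slc7a5 was most like Rwdd4a (0.56), Clint1 (0.52) and Mospd1 (0.48), and Slc7a1 most like Esyt1 (0.50), Adprm (0.46) and Slc7a6 (0.45). Slc1a4 was most like the immunoglobulin segments Igkv1-132 (0.68) and Ighv1-78 (0.47) and Xpot (0.43), on counts from 17 cells. Among the members themselves the highest r was between Slc3a2 and Slc38a2 (0.49), and Slc3a2 and its light chain Slc7a5 had 0.15.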

How the data were processed

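FB5P-seq libraries of 20 plates were deposited as whole-number counts per gene and cell. The authors' tools included HTSeq 0.9.1 and STAR 2.5.3a, with the build mm10, per the submitters' processing notes. Filters on cells and the treatment of doublets are not given in the sources used here, and no doublet caller was run on these index-sorted wells. The authors' table of cells gives plate, sort gate, annotated state and phase, and the share of spike-in RNA as a deposited fraction of each cell's counts. Each cell's name, made of plate and well barcode, occurs once.

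Counts were summed per plate and class (at least 5 cells), scaled by TMM, filtered with filterByExpr and tested with edgeR 4.0.16 in R 4.3.3 (quasi-likelihood, plate as block, Benjamini-Hochberg over all genes tested, threshold 0.05). Rare states were summed per sampleID and tested in 1 fit with sampleID as block. Classes of a plate share its library, which is where the pairing comes from. Alternatives were DESeq2 1.42.0, its size factors, no filter, no immunoglobulin genes (299), spike-in scaling, no block, thinning to 10000 counts, pools of at least 10 cells and single sampleIDs. Limits to G1 cells or to 1 gate were chosen after seeing the data. The fit was tested on simulated data with 200 changed genes per design.

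Text names all 8 members, Atf4, Myc and Xbp1 in every comparison, up to 4 called genes per list with the largest change, and the 3 most alike genes per member among those with at least 20 CPM. One of these genes is not reported here. Members and lists were chosen with earlier results of these data known. Of the listed genes, Slc1a2, Slc7a2, Slc38a5, Slc66a1, Vldlr, Castor1, Castor2, Samtor, Cd3e, S100a8 and S100a9 were not matched in the matrix. Gene positions come from GENCODE M21. Plate totals ran from 5979 to 11908095 counts.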

Additional observations from a re-analysis of the deposited data

Results flagged for a closer look

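Within each sampleID and class, 32 groups of 9 or 10 plates were searched for a plate far from the others, and 9 stood out. The rule flags about 1 in 20 groups by chance only where values are normally spread. Scarce members with many plates at or near 0 are not, so 9 is not shown to exceed chance. In plasma cells of C57BL/6F these were Slc7a5 on plate 4 (73.8 CPM, 1 cell holding all 103 counts), Slc7a6 on plate 2 (245 CPM, 4 of 14 cells, 53.2% of the counts in 1 cell) and Slc1a4 on plate 1 (17.7 CPM, 3 of 29 cells). In plasma cells of C57BL/6M, Slc1a4 stood out on plate 11 (50.4 CPM, 3 of 24 cells).

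In germinal centre B cells of C57BL/6F the plates were 7 for Slc7a5 (40.1 CPM, 1 cell with all 51 counts), 2 for Slc7a1 (31.4 CPM, 93.6% of the counts in 1 cell) and 3 for Slc1a4 (4.38 CPM, 1 cell). In those of C57BL/6M they were 14 for Slc7a5 (66.3 CPM, 2 cells) and 12 for Slc1a4 (17.8 CPM, 1 cell with all 41 counts). All 9 belong to the 4 scarcest members, none of which was called in the comparisons above, and each rests on 1 to 4 cells.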

How the results depend on the processing

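Over 118 alternatives of the 11 called member results, 87 kept direction and call, 29 kept direction and lost the call, and 2 reversed, both under spike-in scaling: Slc3a2 between gates in plasma cells (-0.0057) and Slc1a5 between phases (0.99). Pools of at least 10 cells left the main fit unchanged for annotated plasma against germinal centre B cells and for the comparisons between whole gates. The calls kept there under that setting were fixed in advance and show nothing about robustness. Of 738 member values under alternatives, 75 changed sign, 2 of them called in either fit. Members called in annotated plasma against germinal centre B cells numbered 3, and 1 with DESeq2 size factors, no filter on low counts, either sampleID alone or G1 cells only. Between plasma and germinal centre gates 3 became 1 in C57BL/6M alone or G1 cells only. For the pre-plasma against the germinal centre gates 1 became 2 with spike-in scaling or thinning. Plasma against pre-plasma gate went from 1 to 2 (DESeq2 Wald test, thinning), 3 (spike-in) or 0 (G1 only). Within plasma cells by gate, 1 became 2 (Wald test, spike-in) or 0 (pools of at least 10 cells, C57BL/6F alone, G1 only). The 2 called there with spike-in scaling did not include Slc3a2, the member called in the main fit. Between phases 2 became 1 (size factors, no filter, C57BL/6M alone, plasma gate alone), and memory-like against plasma cells went from 0 to 1 with spike-in scaling (Slc1a5, -2.26). The calls between phases with spike-in scaling included Slc1a5, reversed, and Slc38a1, but not Slc3a2.

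Genes called over the whole table moved by over 1.5 times in every comparison under some setting: 2367 lay between 1013 and 3629 for annotated plasma against germinal centre B cells, 2398 between 953 and 3730 for these gates, 1089 between 495 and 2481 for the pre-plasma gate, 1189 between 109 and 2699 for plasma against pre-plasma gate, 340 between 8 and 870 within plasma cells by gate and 882 between 61 and 2782 between phases. They lay between 14 and 569 (77) for dark against light zone, 55 and 434 (157) for dark zone phases, 55 and 118 (69) and 9 and 99 (41) between sampleIDs in plasma and germinal centre B cells, and 12 and 511 (19), 16 and 397 (28), 17 and 563 (32) and 1 and 1376 (8) for the rarer states in the order described. Without the replicate block the lost calls were Slc1a5 (0.39) by annotation and Slc38a1 (-1.13) between plasma and germinal centre gates. Leaving out a sampleID gave memory-like Slc3a2 values against plasma of -3.15 and 0.36, while single C57BL/6F plates of that state ran from 0 to 1528 CPM. Pools of at least 10 cells left 0 plates for phases, as did the pre-plasma gate alone. Low counts kept Slc1a4 out of every test between plate pools, and Slc7a5 and Slc7a1 out of some.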
